A study of Mus musculus with 4 samples.

Results

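The cytosolic ribosomal protein genes encode the proteins of the ribosomes that translate nuclear messages in the cytosol. They were chosen by symbol, as protein-coding genes named Rpl or Rps with a number, plus Rplp0, Rplp1, Rplp2 and Rpsa and without the S6 kinase genes. The rule found 83 genes among the 54532 gene IDs of the count table. Of these, 77 are core genes, 46 for the large (60S) and 31 for the small (40S) subunit, and 6 are paralogs of a core gene: Rps27l, Rpl39l, Rpl22l1, Rpl7l1, Rpl3l and Rpl10l. All 77 core genes and 4 of the 6 paralogs passed the filter on low counts, and Rpl3l and Rpl10l did not.

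RNA was sequenced from primary mouse embryonic fibroblasts (MEFs), which are cells grown out of dissociated embryos, with 1 library for each of 4 genotypes on C57BL/6: wild type (WT), loss of Zfp871 alone (Zfp871-/-), loss of Trp53 alone (Trp53-/-), and loss of both (Trp53-/-; Zfp871-/-), called the double null below. Per the labels, the embryos were 12.5 to 13.5 days post-coitum, no agent was given, and RNA came from passage 4 cultures in growth phase. Crossing double heterozygotes produced WT, Trp53-/- and double-null embryos, while crossing Zfp871 heterozygotes produced WT and Zfp871-/- embryos. The title places the question in the p53-Mdm2 axis, and the sources used here do not give the cross behind the sequenced WT, any pooling of embryos, or what either allele removes. With 1 library per genotype, no genotype has a replicate, and every ratio between libraries compares those libraries.

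Ribosomal proteins are made in near-equal amounts and assembled on ribosomal RNA in the nucleolus, so their messages are among the most abundant of a growing cell. Their mRNAs carry a 5' terminal oligopyrimidine (TOP) tract, through which mTOR and Larp1 adjust their translation. When assembly is disturbed, free Rpl5 and Rpl11 bind Mdm2 together with 5S ribosomal RNA, and p53 is spared from degradation by Mdm2.

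The libraries held 19303167 counts (WT), 19974054 (Zfp871-/-), 21004078 (Trp53-/-) and 22324599 (double null). Trp53 had 2383, 2413, 1233 and 1382 counts in this order, and Zfp871 had 660, 327, 784 and 307, so each targeted gene was lowest in the libraries labelled null for it without reaching 0. Cdkn1a, a p53 target that stops the cell cycle, went from 13979 and 13103 counts with Trp53 to 341 and 341 without it. All 12 fibroblast markers were detected in each library. All 16 macrophage markers rose with Trp53 loss, beside 5.01% of all genes tested. They summed to 79.7 and 92.8 CPM (counts scaled to library size, after TMM normalization) in WT and Zfp871-/- and to 1122 and 1008 CPM in the libraries without Trp53. No macrophage marker stood at 0 counts in any library. The summed CPM of 10 cartilage markers was 798 in WT and 84.0, 38.2 and 46.9 in the others, and markers of epithelium, endothelium, red cells and muscle summed to at most 24.6 CPM each. The part of these cells in the values below was not tested, and in bulk RNA fewer cells of a type and less RNA per cell cannot be told apart.

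The core genes took between 3.202% and 3.73% of every library. They held 3.48% of the counts in WT (exact Clopper-Pearson 95% interval 3.47% to 3.48%) and 3.202% in Zfp871-/- (3.19% to 3.21%), against 3.54% in Trp53-/- (3.53% to 3.55%) and 3.73% in double-null cells (3.72% to 3.74%). These intervals hold only the error of counting, as reads that carry no molecular identifier may copy the same molecule. The share was lowest in Zfp871-/- and highest in the double null, and no replicate shows how far such shares vary between cultures of 1 genotype. The large subunit genes held between 57.8% and 58.3% of the core counts in each library. The 294 annotated pseudogenes named after ribosomal protein genes held between 0.257% and 0.287% of the core count.

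Levels of different genes are compared as FPKM, the deposited count per gene length and per library factor. That length matched all annotated exons of the gene, as used here, for 94.7% of the 75 members checked. Rps28 is among those that it did not match. The median core gene stood at 208 FPKM in WT and 187 in Zfp871-/-, against 206 in Trp53-/- and 217 in double-null cells, against medians of 5.60 to 5.69 over all genes tested. The order of the 77 genes was nearly the same in every library, with a Spearman correlation of 0.983 to 0.998 between the libraries of a pair over 77 genes, as a description of libraries that share gene lengths and counting.

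Per length of all exons, 2 stalk genes led the order. Rplp1, whose protein forms the flexible stalk that recruits translation factors, had 1250 FPKM in WT and 1097 in Zfp871-/-, against 1337 in Trp53-/- and 1374 in double-null cells. Rplp0, the base of the same stalk, had 1091, 1065, 1032 and 1104 FPKM. Their partner Rplp2 was lower, at 80.0, 66.1, 73.9 and 86.4 FPKM, by a margin that depends on the length used. Its annotated exons hold 2072 bases and its mRNA 449. Per kb of mRNA Rplp2 had 372 CPM in WT, against 1260 for Rplp1 and 1343 for Rplp0. Small subunit genes came next in WT, with Rps2 at 886 FPKM, Rps3a1 at 736 and Rps15 at 682. Per length of mRNA in place of all exons, Rps2 came first in WT, Rplp0 at rank 2, Rplp1 at rank 3 and Rps3a1 at rank 16. The order of such neighbours thus depends on the length used, and no replicate spread separates them.

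The lowest core genes were Rpl24, Rps10, Rpl13a, Rps15a and Rpl39, with 0.869, 1.57, 26.2, 47.9 and 56.2 FPKM in WT. Rpl24, a protein at the bridge between the subunits, had only 17, 27, 33 and 28 counts in WT, Zfp871-/-, Trp53-/- and the double null. Rps10, a protein of the small subunit head, had 69, 84, 151 and 174 counts. Both genes stood below the median of all genes tested in every library, although each ribosome holds a copy of either protein. In the annotation used here, 47.0% of the exon bases of Rpl24 lie in same-strand exons of Gm28037, 20.6% of those of Rps10 in RPS10-NUDT3, and 35.4% of those of Rpl13a in other genes such as Gm45713, while no other core gene passed 14.5%. These 3 overlapping genes had 0 counts in every library. The values of Rpl24, Rps10 and Rpl13a are therefore uncertain as levels, and their part in the values below is given by name.

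**Figure D1:**
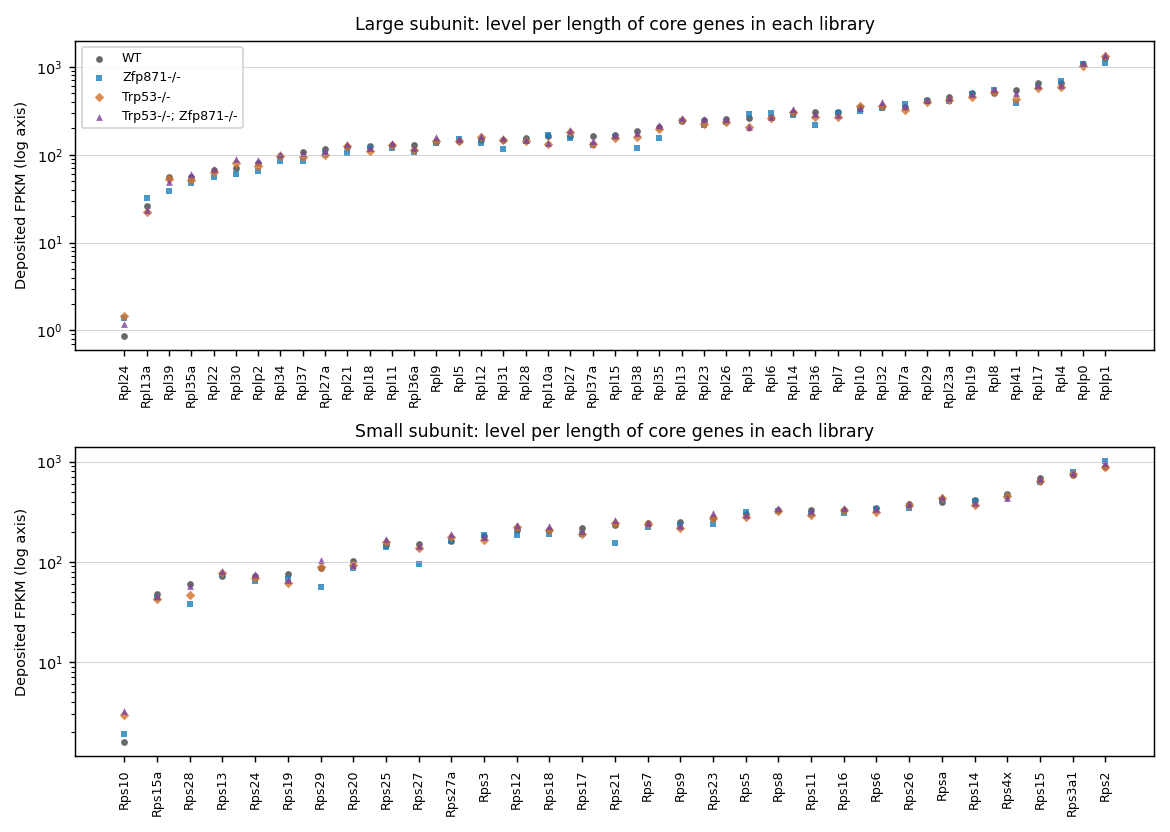
Deposited FPKM on a log axis of the core genes reported, in the 4 libraries (1 point per library), for the large subunit (upper panel) and the small subunit (lower panel), ordered by the WT value. The 4 points of a gene lie close together, Rpl24 and Rps10 lie far below the rest, and Rplp1 lies at the top with 1097 to 1374 FPKM.

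Some core genes carry the TOP tract at their annotated start. The transcription start in the RefSeq promoter table (GRCm38.p6) was searched on the transcript strand for a C within 5 bases of the start that is followed by at least 4 C or T, a reading of the TOP tract. Of the 83 genes, 63 had an entry, 57 core genes and 6 paralogs. The tract was found in 27 of the 57 core genes (47.4%), against 21.2% of the 27025 genes of the table, and in 2 of the 6 paralogs. A missing match says only that these letters are not at the annotated start. Windows of 30 bases around the start are shown for core genes on which the results below turn, with the tract in capitals; Rps6 is added as the target of the S6 kinases, and Rps28 as a gene without a match.
Rps6, chr4:86857353-86857382, minus strand: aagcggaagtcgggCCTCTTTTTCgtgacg
Rps27, chr3:90213634-90213663, minus strand: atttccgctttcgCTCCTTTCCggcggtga
Rpl38, chr11:114668565-114668594, plus strand: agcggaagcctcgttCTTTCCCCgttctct
Rps28, chr17:33824548-33824577, minus strand: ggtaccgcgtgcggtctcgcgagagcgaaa

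No core gene passed the test for either gene loss. The test was edgeR's quasi-likelihood test with Benjamini-Hochberg adjustment over 13306 genes, on the additive design Trp53 + Zfp871, which gives 2 libraries per level and leaves 1 residual degree of freedom. That residual is the departure from additivity, not a spread between replicates. A gene whose ratio for a loss differs between backgrounds is therefore harder to call. The core median of the fitted Zfp871 change was -0.02, where Zfp871-/- against WT had -0.13 and the double null against Trp53-/- had 0.09. With Trp53 loss 667 genes rose (5.01%) and 574 fell (4.31%), 9.33% in all, and 0 of the 77 core genes were among them. At an unadjusted p under 0.05 there were 4 core genes (5.19%) against 31.0% of all genes. With Zfp871 loss 0 of 13306 genes (0%) passed, and at an unadjusted p under 0.05 there were 0 core genes against 510 of all genes (3.83%). DESeq2's Wald test and limma-voom also called 0 core genes for either loss. A p that misses the threshold does not show that a gene kept its level.

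The 4 core genes with an unadjusted p under 0.05 for Trp53 loss were Rpl3, Rps10, Rpl13a and Rpl10a. Rpl3, at the peptidyl transferase centre of the large subunit, had 259 FPKM in WT and 292 in Zfp871-/-, against 207 in Trp53-/- and 209 in double-null cells. The libraries without Trp53 lay below both libraries with it, with a fitted log2 change of -0.40 (SE 0.121, edgeR adjusted p = 0.114). Rpl10a, a protein of the mobile L1 stalk, had 162 and 167 FPKM with Trp53 and 132 and 135 without it, a log2 change of -0.30 (SE 0.108, edgeR adjusted p = 0.152). Rpl13a, of the large subunit surface, had 26.2 and 31.8 FPKM with Trp53 and 22.4 and 23.5 without, and Rps10 had 1.57 and 1.93 with and 2.98 and 3.24 without. For each of these 4 genes the groups with and without Trp53 did not overlap. The genes were picked by their p in the same libraries, so this separation adds no support to it.

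Core genes differed less between libraries than most genes tested, without matching for abundance. On the log2 scale of normalized CPM, 36 of 77 core genes (46.8%) differed by less than 0.2 in each of the 4 pairs of libraries that differ at 1 locus, against 12.7% of the 13306 genes tested. At least 2-fold differences were found for 0 core genes in each of these 4 pairs; of all genes, 3.52% passed that size upward and 3.98% downward in Zfp871-/- against WT, and 8.90% and 8.88% in Trp53-/- against WT. These shares were 0.819% and 1.01% for the double null against Trp53-/-, and 5.51% and 6.33% for the double null against Zfp871-/-. Core genes are far more abundant than most genes tested, with WT medians of 208 against 5.63 FPKM. At least 1000 counts in each library were found for 74 of them. Ratios of low counts vary more by counting error, and no background of like abundance was used.

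With TMM scaling, most core genes lay slightly below WT in Zfp871-/- and slightly above Trp53-/- in the double null; set against other coding genes of the same length, as given further on, the first median turned to 0.09. In Zfp871-/- against WT 17 of 77 core genes (22.1%) had a log2 ratio above 0, against 49.5% of all genes, and the core median was -0.13, with the middle 50% of genes from -0.21 to -0.02. In the double null against Trp53-/-, 71 of 77 (92.2%) lay above 0, against 50.9% of all genes, and the core median was 0.09, with the middle 50% from 0.04 to 0.12. These 2 pairs share no library, and 55 of the 77 core genes were below 0 in the first and above 0 in the second. The core spread in the second pair was narrow, with an SD over genes of 0.08 against 0.22 in the first. Over all genes tested the SD was also smaller in the second pair, at 0.33 against 0.58.

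The core medians of the pairs that differ at Trp53 also had opposite signs. In Trp53-/- against WT 27 of 77 core genes (35.1%) lay above 0, against 50.1% of all genes, and the median was -0.08. In the double null against Zfp871-/-, 59 of 77 (76.6%) lay above 0, against 50.2% of all genes, and the median was 0.12. The double null against WT gave 38 of 77 (49.4%) above 0, against 49.9% of all genes, and a median of -0.00046. The pairs that differ at Zfp871 and those that differ at Trp53 are built from the same 4 libraries and are not independent of each other. Of the 77 core genes, 45 had their lowest normalized CPM in Zfp871-/-, 22 in Trp53-/-, 9 in WT and 1 in the double null.

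The ends of the Trp53 pairs, among core genes with at least 100 counts, shared Rps10 at the top and Rpl3 at the bottom and otherwise held other genes in each background; no difference between backgrounds was tested. In Trp53-/- against WT the highest were Rps10 (0.90), Rpl30 (0.18) and Rpl27 (0.14), and the lowest were Rps28 (-0.35), Rpl37a (-0.33) and Rpl3 (-0.33). Rpl30, a large subunit protein that also controls its own splicing in yeast, had 70.3 FPKM in WT and 60.8 in Zfp871-/-, against 80.0 and 88.4 without Trp53. These groups did not overlap, in a gene picked for its ratio. Rpl37a, a zinc-binding large subunit protein, had 165 and 130 FPKM with Trp53 and 131 and 145 without, which overlap. In the double null against Zfp871-/- the highest were Rps29 (0.90), Rps21 (0.77) and Rps10 (0.74), and the lowest were Rpl3 (-0.48), Rpl13a (-0.43) and Rpl10a (-0.30). Rps29 had 86.2 and 56.6 FPKM with Trp53 and 88.4 and 105 without, where the low value is that of the Zfp871-/- library.

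Within the Trp53-null background the ends lay close to 0. The highest ratios of the double null to Trp53-/- were those of Rps28 (0.30), Rps29 (0.24) and Rplp2 (0.22), and low ratios were those of Rpl39 (-0.15) and Rpl10 (-0.09). Rpl10, a late-joining large subunit protein, had 359 FPKM in Trp53-/- and 339 with both genes lost. No core gene with at least 100 counts differed by more than 0.30 on the log2 scale in this pair.

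Large and small subunit genes are given apart, with no test of a difference. In Zfp871-/- against WT the median was -0.12 over 46 large subunit genes and -0.13 over 31 small subunit genes, and in the double null against Trp53-/- it was 0.09 for each. In Trp53-/- against WT it was -0.09 for large and -0.04 for small subunit genes. The double null against Zfp871-/- gave 0.14 and 0.12. Macrophage marker sums, given above, differ mainly between libraries with and without Trp53, and their part in these medians was not tested.

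**Figure D2:**
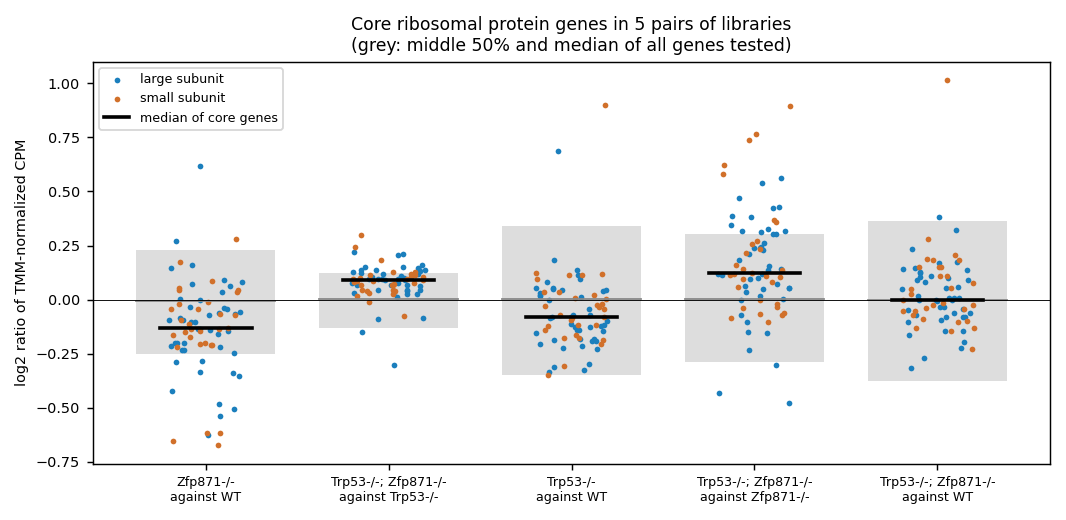
Log2 ratio of TMM-normalized CPM of the 77 core genes (points, coloured by subunit) in 5 pairs of libraries, with the core median as a black bar and the middle 50% and median of all genes tested in grey. Core medians are -0.13, 0.09, -0.08, 0.12 and -0.00046 from left to right. The second pair has the narrowest spread, for core genes and for all genes tested.

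The scaling moved these medians. With total counts in place of TMM, the median of all genes shifted to -0.06 in Zfp871-/- against WT, 0.09 in Trp53-/- against WT and 0.14 in the double null against Zfp871-/-. The core median then read -0.18, 0.01 and 0.27 in these pairs, so the sign in Trp53-/- against WT turned. A scaling factor moves all genes of a library alike, so the core median relative to all genes does not depend on it. It stood at -0.12 in Zfp871-/- against WT, 0.09 in the double null against Trp53-/-, -0.08 in Trp53-/- against WT and 0.12 in the double null against Zfp871-/-.

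The core genes with the lowest ratios to WT in Zfp871-/- were among those with the shortest messages. Rps28, a small protein at the mRNA exit of the small subunit, had 59.7 FPKM in WT and 37.7 in Zfp871-/-, against 46.9 in Trp53-/- and 57.9 in double-null cells. Rps27, a zinc-binding small subunit protein, had 149, 95.6, 138 and 143 FPKM. Rpl38, known for its part in translating Hox messages, had 185, 121, 160 and 178 FPKM. In each of these 3 genes the Zfp871-/- library was the lowest. For Rps27 and Rpl38 the other libraries stood closer to each other than to it, while for Rps28 Trp53-/- lay between it and the rest.

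Their log2 ratios in Zfp871-/- against WT were -0.67 (exact interval of the counts -0.79 to -0.56) for Rps28, -0.65 (-0.74 to -0.57) for Rps27 and -0.63 (-0.73 to -0.52) for Rpl38. Their mRNAs are 387, 345 and 367.5 bases long, where the median core mRNA has 827 bases and the median of 12277 other coding genes tested has 3013. Rps29 (390 bases) and Rps21 (394 bases) stood at -0.62 each. The match with length was not strict, as Rpl36 (383 bases) stood at -0.50 and Rpl39, with 612 bases, lay lower at -0.54. In the double null against Trp53-/- Rps28 lay at 0.30, Rps29 at 0.24, Rpl38 at 0.15, Rps21 at 0.12 and Rps27 at 0.04.

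At the other end, Rpl13a, Rps2 and Rpl3 had the highest ratios in Zfp871-/- against WT among core genes with at least 100 counts in a library of the pair. Rps2, at the mRNA entry of the small subunit, had 886 FPKM in WT and 1006 in Zfp871-/-, against 888 in Trp53-/- and 960 in double-null cells, a log2 ratio of 0.17 (0.15 to 0.20) in Zfp871-/- against WT. The ratio of Rpl3 was 0.16 (0.13 to 0.19) and that of Rpl13a 0.27 (0.15 to 0.39). Their mRNAs have 1046, 1351 and 1047 bases.

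This order by length held for other coding genes too. Among 115 other coding genes with an mRNA of up to 600 bases, the median log2 ratio in Zfp871-/- against WT was -0.29, and it stood at -0.22, -0.14, -0.06, -0.01, 0.03 and 0.09 in the longer classes up to over 5000 bases. The 20 core genes of up to 600 bases had a median of -0.26 with 1 above 0, and the 34 core genes of 600 to 1000 bases had -0.07. Over the 77 core genes the Spearman correlation of the ratio with mRNA length was 0.46, and over the 12277 other coding genes 0.19, as descriptions over genes of the same libraries. In the double null against Zfp871-/- the shortest class stood at 0.32 for core genes and 0.44 for others. That pair shares the Zfp871-/- library.

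Set against other coding genes of its own length class, the core median changed sign in 2 pairs. It was 0.09 in Zfp871-/- against WT, with 57 genes above their class and 20 below, and -0.11 in the double null against Zfp871-/-, with 26 above and 51 below. In the double null against Trp53-/- it was 0.04, with 59 above and 18 below, and in Trp53-/- against WT it was -0.05, with 32 above and 45 below. Setting by length class was chosen after seeing the data. Message length thus moved with the ratio in the Zfp871-/- library, and its part in the core values cannot be told apart from that of the genotype with 1 library.

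**Figure D3:**
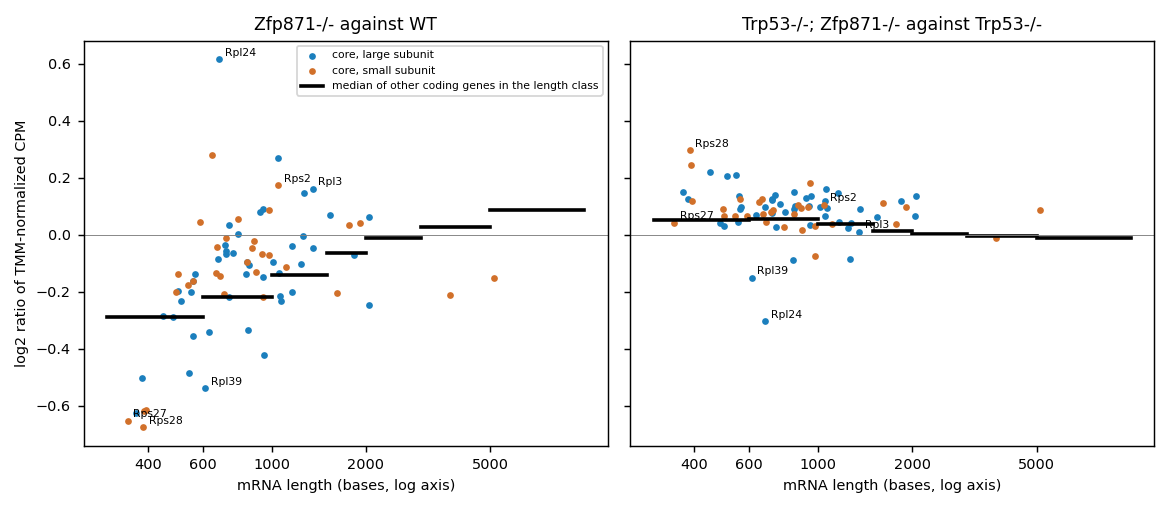
Log2 ratio of TMM-normalized CPM of each core gene against its mRNA length on a log axis, with bars for the median of other coding genes in 7 length classes (the last holds all over 5000 bases and is drawn to the right edge). In Zfp871-/- against WT (left) the bars climb from -0.29 to 0.09 and Rps27 and Rps28 lie lowest; in the double null against Trp53-/- (right) the bars stay between -0.01 and 0.06.

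Of Rpl5 and Rpl11, which dock on 5S ribosomal RNA and bind Mdm2, Rpl5 had nearly the same level in all libraries. Rpl11 varied more, from 120 FPKM in Zfp871-/- to 137 in the double null. Rpl5 (chr5:107900502-107909005, GRCm38) had 10565 counts in WT and 11029 in Zfp871-/-, against 12498 in Trp53-/- and 13917 in double-null cells, or 142, 149, 145 and 153 FPKM. Its log2 ratios were 0.06 in Zfp871-/- against WT, 0.07 in the double null against Trp53-/-, 0.03 in Trp53-/- against WT and 0.03 in the double null against Zfp871-/-. Rpl11 (chr4:136028265-136053428) had 6541, 6118, 7570 and 8576 counts, or 128, 120, 128 and 137 FPKM. Its ratios were -0.09, 0.09, -0.00 and 0.19 in the same order. Neither passed the test for Trp53 loss, with edgeR log2 changes of 0.03 (SE 0.112, adjusted p = 0.873) and 0.09 (SE 0.116, adjusted p = 0.637).

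Other ribosomal proteins reported to bind Mdm2 or p53 were read with them, 16 genes in all with Rpl5 and Rpl11. With Trp53 loss 0 rose and 1 fell, the paralog Rps27l, beside 5.01% and 4.31% of all genes, so 1 call in 16 genes is near the background. With Zfp871 loss 0 passed the edgeR test, beside 0% of all genes, with 0 at an unadjusted p under 0.05. Their median log2 ratio was -0.13 in Zfp871-/- against WT and 0.08 in the double null against Trp53-/-, close to the core medians. Rpl23, an early reported binder of Mdm2, had 249, 216, 225 and 253 FPKM in WT, Zfp871-/-, Trp53-/- and the double null. Rps7, another, had 244, 224, 239 and 242 FPKM. Rpl26, reported to act on the translation of p53, had 256, 234, 239 and 257 FPKM. Over Rps26, Rps14, Rps3, Rps25, Rps20, Rpl37, Rpl6, Rps15 and Rps27a, the log2 ratios in the 4 pairs that differ at 1 locus ran from -0.33 to 0.30, with both ends set by Rpl37. Rps27 is described with the shortest messages.

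The 19 genes mutated in Diamond-Blackfan anaemia, an inherited failure of red cell production, gave 0 calls for either loss in the edgeR test, beside 9.33% and 0% of all genes. Rps10 alone among them had an unadjusted p under 0.05 for Trp53 loss, and 0 had one for Zfp871 loss. Their median was -0.15 in Zfp871-/- against WT, with 2 of 19 above 0, and 0.10 in the double null against Trp53-/-, with 19 of 19 above 0. Of all genes 49.5% and 50.9% lay above 0 in these pairs, and of core genes 22.1% and 92.2%.

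Of the paralogs, Rps27l stood apart. It lies on chromosome 9 (chr9:66946086-66949516, plus strand) and encodes a near copy of Rps27 that is known as a direct p53 target. It had 3081 counts in WT and 2249 in Zfp871-/-, against 1536 in Trp53-/- and 1766 in double-null cells, or 199, 146, 85.7 and 93.1 FPKM. Both libraries without Trp53 lay below both libraries with it. Rps27l fell by 0.93 on the log2 scale with Trp53 loss (SE 0.171, edgeR quasi-likelihood adjusted p = 0.0483), the only member past the test. The ratio was -1.21 (-1.30 to -1.13) in Trp53-/- against WT and -0.65 (-0.74 to -0.56) in the double null against Zfp871-/-. Its WT level was the highest, and the Zfp871-/- library stood at -0.45 (-0.53 to -0.37) against WT, while its parent Rps27 stood at -0.65 there. With total counts in place of TMM the call was lost (edgeR adjusted p = 0.0668), and DESeq2, limma-voom and 2 other settings of edgeR kept it, with adjusted p between 0.000931 and 0.0431. The macrophage marker sum splits the libraries the same way, and its part in the Rps27l value was not tested.

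Per length of all exons Rps27l stood above Rps27 in WT and Zfp871-/-, but per kb of mRNA it stood below, at 328 against 455 CPM in WT and 239.6 against 289 in Zfp871-/-. As a share of the reads of both genes, Rps27l held 51.0% in WT (49.8% to 52.3%) and 54.5% in Zfp871-/- (52.96% to 56.0%), against 32.7% in Trp53-/- (31.4% to 34.1%) and 33.8% in the double null (32.5% to 35.1%). Both shares with Trp53 lay above both without it, and WT and Zfp871-/- also differed beyond their counting intervals. A share within 1 library needs no scaling between libraries. The coding sequences, each of 255 bases, differ at 61 positions, are 76.1% identical and share no run longer than 11 bases. They are printed from the reference genome with the positions that differ in capitals, to show how far reads of the pair can be told apart.
Rps27: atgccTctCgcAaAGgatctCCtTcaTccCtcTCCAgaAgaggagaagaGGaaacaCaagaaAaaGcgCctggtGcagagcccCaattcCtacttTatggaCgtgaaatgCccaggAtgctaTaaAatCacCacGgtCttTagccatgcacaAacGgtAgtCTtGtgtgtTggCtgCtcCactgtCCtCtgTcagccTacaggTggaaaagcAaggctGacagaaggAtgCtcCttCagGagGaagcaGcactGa
Rps27l: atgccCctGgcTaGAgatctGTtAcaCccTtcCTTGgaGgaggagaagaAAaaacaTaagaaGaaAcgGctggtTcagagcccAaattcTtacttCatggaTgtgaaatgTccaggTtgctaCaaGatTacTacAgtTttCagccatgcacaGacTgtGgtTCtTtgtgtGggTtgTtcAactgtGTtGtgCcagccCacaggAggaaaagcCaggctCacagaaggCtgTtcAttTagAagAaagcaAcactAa

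The promoter windows of the 63 members with an entry were searched for the p53 half-site, the palindromic decamer known by that name, which reads the same on both strands. Rps27l was the only one of them with at least 2 of them in a window of the table, as were 106 of 27025 genes (0.392%). They lie at chr9:66946203-66946212 and chr9:66946306-66946315, between annotated exons of the gene, with 93 bases between them. A p53 response element has at most 13 bases between its half-sites, and none of the 63 had such a pair, against 20 of 27025 genes (0.0740%). The stretch chr9:66946183-66946335 (GRCm38.p6, plus strand) is shown because it holds both, in capitals.
Rps27l intron: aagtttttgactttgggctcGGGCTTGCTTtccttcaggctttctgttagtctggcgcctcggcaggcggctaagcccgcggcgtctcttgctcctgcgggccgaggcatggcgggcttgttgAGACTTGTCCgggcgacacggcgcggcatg
No binding was measured here, and a match is a description of letters. At least 1 half-site was found in 4 of 57 core genes (7.02%), Rps21, Rps27, Rps19 and Rpl35a, against 9.55% of all genes of the table.

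Rpl39l, a copy of Rpl39 that is best known from male germ cells, was rare in WT and higher in each of the other libraries. It lies on chromosome 16 (chr16:10170226-10174911) and had 42 counts in WT and 98 in Zfp871-/-, against 199 in Trp53-/- and 244 in double-null cells, or 2.66, 6.26, 10.9 and 12.6 FPKM. Its log2 ratio was 1.19 (0.69 to 1.78) in Zfp871-/- against WT and 1.99 (1.55 to 2.55) in Trp53-/- against WT. The fitted log2 change with Trp53 loss was 1.496 (SE 0.345, edgeR adjusted p = 0.0719), which did not pass. Without the filter on low counts edgeR called it (adjusted p = 0.0187), as did DESeq2 (adjusted p = 0.0341). Rpl39 itself, which lines the exit tunnel, had 56.2, 39.0, 53.5 and 48.4 FPKM. The share of Rpl39l in the reads of both genes was 2.67% (1.93% to 3.59%), 8.52% (6.97% to 10.3%), 10.6% (9.21% to 12.0%) and 13.1% (11.6% to 14.7%). Part of this share comes from the lower Rpl39 count in Zfp871-/-.

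The coding sequences of this pair have 156 bases, differ at 23 positions and share a run of 38 bases, so a read that falls within such a run carries no base that separates them. They are shown with the differing positions in capitals.
Rpl39: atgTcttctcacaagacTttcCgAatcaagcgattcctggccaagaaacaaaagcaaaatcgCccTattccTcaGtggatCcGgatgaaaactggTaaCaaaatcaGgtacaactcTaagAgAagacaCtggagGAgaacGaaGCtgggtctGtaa
Rpl39l: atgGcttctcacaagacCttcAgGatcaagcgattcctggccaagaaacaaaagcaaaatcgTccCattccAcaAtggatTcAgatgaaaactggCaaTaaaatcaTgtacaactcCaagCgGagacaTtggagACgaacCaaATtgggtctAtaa

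The other paralogs differed less. Rpl22l1, which can take the place of Rpl22 in ribosomes, had 398 counts in WT and 369 in Zfp871-/-, against 353 in Trp53-/- and 366 in double-null cells, with an edgeR log2 change of -0.35 for Trp53 loss (SE 0.152, adjusted p = 0.211). Its parent Rpl22 had 3666, 3084, 4017 and 4690 counts. Rpl7l1, a relative of Rpl7 found in pre-ribosomes, had 2182, 2546, 2863 and 3473 counts, against 15705, 15248, 15934 and 17495 for Rpl7. Its share of the reads of both genes was 12.2% in WT (11.7% to 12.7%) and 14.3% in Zfp871-/- (13.8% to 14.8%), against 15.2% in Trp53-/- (14.7% to 15.8%) and 16.6% in double-null cells (16.1% to 17.1%). Rpl3l, the striated muscle form of Rpl3, had 0, 0, 0 and 1 counts. Rpl10l, the testis form of Rpl10, had 0 counts in every library; a count of 0 allows up to 3 counts (one-sided 95% limit), which is under the lowest value of any core gene.

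**Figure D4:**
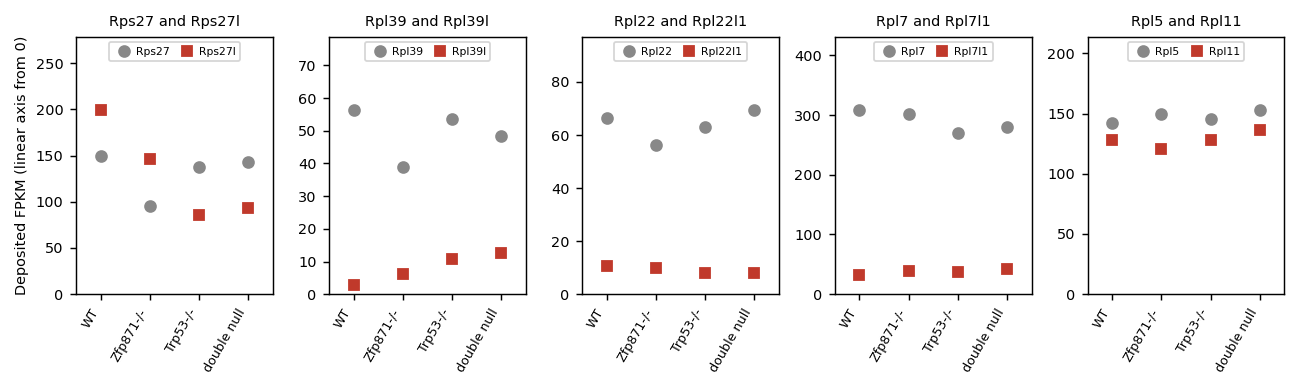
Deposited FPKM (linear axis from 0) in the 4 libraries for 4 paralogs and their parent genes, and for Rpl5 with Rpl11 (1 point per library, no replicate). Per length of all exons Rps27l lies above Rps27 in WT and Zfp871-/- and below it in the libraries without Trp53, Rpl39l climbs from 2.66 to 12.6, and Rpl5 and Rpl11 stay between 120 and 153.

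A few ribosomal proteins lie outside the symbol rule. Rack1, a scaffold on the small subunit head, had 188, 203, 179 and 189 FPKM in WT, Zfp871-/-, Trp53-/- and the double null, and Fau, which encodes the fusion precursor of a small subunit protein, had 319, 312, 319 and 334. Their log2 ratios in Zfp871-/- against WT were 0.10 and -0.04. Neither of them passed the edgeR test for either loss, and neither had an unadjusted p under 0.05. The same was true of Rpl36al and Rps27rt.

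Some genes that build ribosomes passed the test for Trp53 loss, where 0 core genes did; the difference between the lists was not tested. The box C/D and H/ACA snoRNP core, which modifies ribosomal RNA, had 4 of 8 genes that rose with Trp53 loss and 0 that fell, beside 5.01% and 4.31% of all genes. Nop56, a box C/D protein, had 2467 counts in WT and 3185 in Zfp871-/-, against 4938 in Trp53-/- and 6207 in double-null cells, and rose by 0.73 (SE 0.109, edgeR adjusted p = 0.0362). Dkc1, the pseudouridine synthase, had 932, 1217, 2008 and 2377 counts and rose by 0.78 (SE 0.115, edgeR adjusted p = 0.0352). Nhp2 and Snu13 rose too. The list median was 0.60 in Trp53-/- against WT and 0.66 in the double null against Zfp871-/-, where the core medians were -0.08 and 0.12.

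Beside the 5.01% of all genes that rose, assembly lists gave 3 of 24 genes that rose for the small subunit (Rrp9, Utp15 and Wdr43) and 2 of 29 for the large subunit (Gnl3 and Nmd3), with 0 that fell in either, where the large subunit share is near that of all genes. RNA polymerase I and its factors gave 2 of 13, Taf1d and Tcof1, the gene of Treacher Collins syndrome, and the list of 5S particle genes and chaperones gave 1 of 9, Grwd1. The medians in Trp53-/- against WT were 0.26 for small subunit assembly, 0.37 for large subunit assembly, 0.23 for RNA polymerase I and 0.46 for the 5S particle and chaperones. Myc, a known activator of ribosome assembly genes, had 937, 1194, 2334 and 2991 counts and rose by 1.06 (SE 0.102, edgeR adjusted p = 0.0205). Myc belongs to a list of 21 TOP and growth regulators in which 1 gene rose and 3 fell, beside 5.01% and 4.31% of all genes. The 3 that fell were Sesn2 and Ddit4, which restrain mTOR, and Mxd4, a Myc antagonist. In the same libraries 13 of 22 cell division genes rose and 0 fell, beside the same shares of all genes. The part of cell division and of the macrophage markers in these lists was not tested.

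Other genes known for TOP messages did not form 1 pattern in their medians, which take no account of message length. Among 21 translation factors with TOP messages 0 passed the edgeR test for either loss, beside 9.33% and 0% of all genes. An unadjusted p under 0.05 was found for 3 with Trp53 loss and 0 with Zfp871 loss, beside 31.0% and 3.83% of all genes. Eef2, the translocation factor, had 63352, 78512, 60592 and 64755 counts, and Eef1a1, the tRNA carrier, had 151929, 163557, 147309 and 158446. The list median was 0.15 in Zfp871-/- against WT, with the core at -0.13. Set against other coding genes of the same length class, the core median in this pair was 0.09. The other lists were not set against length. Among 7 snoRNA host genes with TOP transcripts 2 rose with Trp53 loss, Snhg1 and Snhg5, and 0 fell, beside 5.01% and 4.31% of all genes. The median of these 7 was -0.37 in Zfp871-/- against WT and 0.80 in the double null against Zfp871-/-. The 74 mitochondrial ribosomal protein genes tested gave 0 calls in the edgeR test for either loss, beside 9.33% and 0% of all genes, with 10 and 0 at an unadjusted p under 0.05, beside 31.0% and 3.83%. Their medians were -0.10 in Zfp871-/- against WT and 0.14 in the double null against Trp53-/-. The 10 S6 kinase genes gave 0 calls as well, with 1 and 0 at an unadjusted p under 0.05, beside 31.0% and 3.83% of all genes.

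**Figure D5:**
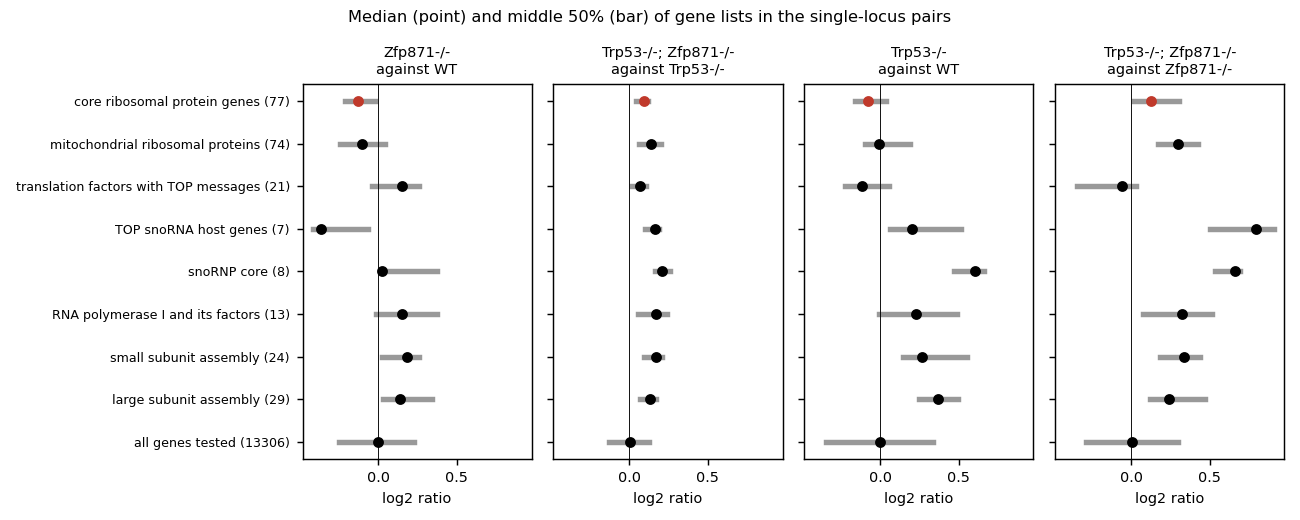
Median log2 ratio (point) and middle 50% of genes (bar) for the core ribosomal protein genes (red) and lists of related genes in the 4 pairs that differ at 1 locus, with the number of genes tested in brackets. In Trp53-/- against WT the snoRNP core stands at 0.60 and the core genes at -0.08.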

How the data were processed

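RNA-seq of 4 MEF cultures, 1 library per genotype, was analysed. The deposited counts per Ensembl gene were made by the authors on mm10; the submitters' processing notes name fastp, STAR and featureCounts. The sources used here do not give versions, annotation or strand setting. The deposited value per library was read as FPKM of the authors, since it equals the count divided by a length per gene and 1 factor per library. Symbols and coordinates came from GENCODE M21 (GRCm38), which held 54495 of 54532 IDs; the other 37 took under 0.006% of counts.

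Counts were normalized by TMM (edgeR 4.0.16, R 4.3.3), and 13306 genes with a CPM of at least 1 in at least 2 libraries were tested with edgeR's quasi-likelihood test on the design Trp53 + Zfp871, adjusted by Benjamini-Hochberg at 0.05. Only genes past it are said to have risen or fallen. Pairs of libraries were compared as log2 ratios of TMM-scaled CPM (prior count 2) with exact (Clopper-Pearson) 95% intervals of the counts. DESeq2 1.42.0 and limma 3.58.1 were alternatives. mRNA length is the median of principal transcripts. On simulated counts of 13306 genes the test recovered 59% of 2-fold and 98% of 4-fold changes for Trp53 loss (5 false calls) and 53% and 99% for Zfp871 loss (7 false calls). The simulation gave all genes the same dispersion (spread beyond counting error) and held only additive changes of these sizes. Its rates do not carry over to genes that depart from additivity or to shifts as small as the core medians.

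The members and the 22 gene lists were chosen with earlier results of these data known. Named genes are Rpl5, Rpl11, the Mdm2 list, paralogs and parents, members past the test, the 3 highest and 3 lowest core genes per pair (at least 100 counts) and of the difference between backgrounds, the 5 highest and 5 lowest levels, core genes within 5 Mb of a target, and up to 4 of each other list by mean count; others named were chosen after their values were seen. Some genes that this rule takes are not reported here. All p-values rest on the departure from additivity among these 4 libraries only, with no spread between replicates.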

Additional observations from a re-analysis of the deposited data

Results flagged for a closer look

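The median log2 ratio of the 77 core ribosomal protein genes had opposite signs in the 2 Trp53 backgrounds. For Zfp871 loss it was -0.13 in Zfp871-/- against WT and 0.091 in the double null against Trp53-/-. For Trp53 loss it was -0.079 in Trp53-/- against WT and 0.12 in the double null against Zfp871-/-, which is the same set of 4 libraries read the other way. Neither difference between backgrounds was tested, because a fit with an interaction term leaves no residual degree of freedom in 4 libraries. Set against other coding genes of the same length class, the medians were 0.090, 0.042, -0.051 and -0.11, so the opposite signs were not seen there.

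Among core genes with at least 100 counts, those with the most negative difference of the Zfp871 ratio between backgrounds were Rps28, Rps29 and Rpl38, all with mRNAs of under 400 bases, and those with the most positive difference were Rpl13a, Rps10 and Rpl3. Rpl24, with 17 to 33 counts, had a difference of 0.92.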

How the results depend on the processing

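The count of 0 core genes past the test for either loss was the same with DESeq2's size factors, total counts, no filter, DESeq2's Wald test and limma-voom. With DESeq2's size factors the core medians were -0.12 in Zfp871-/- against WT, 0.12 in the double null against Zfp871-/- and 0.0032 in the double null against WT, the last with its sign changed from -0.00046. With total counts they were -0.18, 0.27 and 0.089 in these pairs and 0.0097 in Trp53-/- against WT. Adding ribosomal proteins from outside the symbol rule gave -0.11 in Zfp871-/- against WT and 0.0027 in the double null against WT. Core genes with an mRNA of at least 600 bases gave -0.071, 0.086, -0.072, 0.097 and 0.0058, in the order Zfp871-/- against WT, double null against Trp53-/-, Trp53-/- against WT, double null against Zfp871-/- and double null against WT. Set against their length class they gave 0.090, 0.042, -0.051, -0.11 and -0.0081. Both of these were chosen after seeing the data. Shares of counts over nuclear coding genes were 3.595%, 3.32%, 3.64% and 3.84%, and with pseudogenes 3.48%, 3.21%, 3.55% and 3.74%, in the order WT, Zfp871-/-, Trp53-/- and double null. Leaving out core genes under 1000 counts, TMM without the ribosomal protein genes and a prior count of 0.5 kept the sign of every median, with values close to the main ones. Leaving out core genes under 1000 counts was not a planned setting either. The causes of the shifts were not tested.

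With total counts 884 genes rose and 432 fell with Trp53 loss (67.2% rose, against 53.7% with TMM), and without the filter 1113 rose and 1191 fell; Zfp871 loss then gave 2 and 4, and DESeq2 3 and 5. No paired analysis was possible with 1 library per genotype. Leaving out a library left no residual degree of freedom, so no test was run. Counts of 17 to 33 limit Rpl24, and no setting replaces the missing replicates.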

Other observations

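The 4 X-linked core genes, Rpl10, Rpl36a, Rpl39 and Rps4x, had a median log2 ratio of -0.08 in the double null against Trp53-/-, the pair in which 71 of 77 core genes lay above 0. Rps4x, whose human counterpart escapes X inactivation, had 477 FPKM in WT and 457 in Zfp871-/-, against 455 in Trp53-/- and 434 in double-null cells, and Rpl10 had 346, 317, 359 and 339. The 441 other X-linked genes tested had a median of -0.12 in that pair. Xist, the RNA that coats the inactive X, had 12139, 9152, 12564 and 14475 counts in the 4 libraries, and Y-linked genes had at most 1. The 4 X-linked genes were grouped after their values were seen, and no difference from other core genes was tested.

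The core genes near a targeted locus are given as values with no test. Near Zfp871 on chromosome 17 lie Rps28, Rps18 and Rpl10a, at 1.04, 1.18 and 4.45 Mb, with log2 ratios in the double null against Trp53-/- of 0.30, 0.13 and 0.03 and in Zfp871-/- against WT of -0.67, -0.16 and 0.04. The ratio of Rps28 was the highest of the 77 core genes in the first of these pairs and the lowest in the second. Rpl26 lies 0.68 Mb from Trp53 on chromosome 11 and stood at -0.10 in Trp53-/- against WT and 0.13 in the double null against Zfp871-/-. Rps28 is also among the core genes with the shortest messages.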
